A study of Mus musculus with 2 samples.

Results

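The MHC class I presentation genes described here are 10 genes that make the class I molecule and supply it with peptides. They are H2-K1, H2-D1, B2m, Tap1, Tap2, Tapbp, Erap1, Psmb8, Psmb9 and Nlrc5. They were chosen by name for their part in the pathway, and all 10 were among the 21722 genes listed in either of the deposited tables of UMI counts (unique molecular identifiers, each marking 1 captured RNA molecule). The study profiled non-parenchymal cells (NPCs) of mouse liver by droplet scRNA-seq that reads the 3′ ends of RNA, in 1 normal and 1 fibrotic animal. Both were male C57BL/6 mice, 8 weeks old, without an engineered allele in the labels. The fibrosis mouse received CCl4, a liver toxin, as a 15% solution in olive oil at 0.6 μl per g of body weight, 2 times a week for 6 weeks. The normal mouse, labelled quiescent, received olive oil, and the methods place cell collection 48 h after the last injection. Hepatocytes were spun out at low speed before the NPCs were taken from a density gradient, so the hepatocytes left are remnants of that step.

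Class I molecules show peptides from inside a cell to CD8 T cells, and nearly every nucleated cell carries them. The proteasome cuts proteins into peptides, the TAP transporter carries these into the endoplasmic reticulum, aminopeptidases trim them, and tapasin helps a heavy chain paired with β2-microglobulin to bind one. Interferons raise the expression of the pathway, and Nlrc5 is a transactivator that acts at class I promoters. In the liver, LSECs (liver sinusoidal endothelial cells) take up antigen from blood and present it to CD8 T cells, and hepatocytes hold little class I at rest.

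Of the 10 genes, 7 lie on mouse chromosome 17 (GENCODE vM21 annotation, GRCm38, the assembly that the mm10 build of the files carries). H2-K1 spans 33996017 to 34000347 on the minus strand and H2-D1 spans 35262730 to 35267499 on the plus strand. Psmb9, Tap1, Psmb8 and Tap2 are neighbours between 34181987 and 34216321, and the starts of Tap1 and Psmb9, which are read in opposite directions, were 225 bases apart in the RefSeq promoter table. Tapbp spans 33915899 to 33929292 on the plus strand of the same chromosome. B2m lies on chromosome 2 (122147686 to 122153083, plus strand), Erap1 on chromosome 13 and Nlrc5 on chromosome 8.

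The stretches before the starts of H2-K1 and B2m are shown because they hold the promoter motifs by which class I genes are known, and because the levels of these 2 genes are the highest of the pathway. Sequences are from RefSeq (GRCm38.p6), 200 bases each, 5′ to 3′ along the gene's own strand, free of annotated exons. Capitals mark the motifs found, the κB core GGGATTCCC, the interferon-response core GAAANNGAA, the core TGACG and the box CCAAT, which reads ATTGG where it lies on the other strand. The H2-K1 stretch is chr17:34000348-34000547 (minus strand) and that of B2m is chr2:122147486-122147685 (plus strand).
H2-K1: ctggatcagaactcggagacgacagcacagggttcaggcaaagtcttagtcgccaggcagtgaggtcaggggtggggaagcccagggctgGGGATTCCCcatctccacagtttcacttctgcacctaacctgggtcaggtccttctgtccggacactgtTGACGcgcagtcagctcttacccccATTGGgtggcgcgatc
B2m: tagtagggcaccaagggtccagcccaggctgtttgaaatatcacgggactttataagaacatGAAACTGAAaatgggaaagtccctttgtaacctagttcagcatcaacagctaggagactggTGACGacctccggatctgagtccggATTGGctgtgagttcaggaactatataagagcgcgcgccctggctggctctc

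The motifs were searched on both strands in the 250 bases before the start of 8 of the 10 genes (the table matched no promoter for Tap2 and Nlrc5). GGGATTCCC was present before H2-K1 and H2-D1, 2 of 8, and in 84 of 27025 promoters (0.311%). TGACG was present before H2-K1, H2-D1, B2m, Tap1 and Psmb9, 5 of 8, against 17.9% of all promoters. CCAAT was present in 6 of 8 against 34.5% of all. The starts of Tap1 and Psmb9 lie 225 bases apart in opposite directions, so their windows cover much of the same DNA. Their TGACG matches are the same site, as are their CCAAT matches, so each site was counted for both genes. GAAANNGAA was found before B2m and Erap1, 2 of 8 (7.16% of all), and TTCNNNGAA, the core of a STAT site, before Psmb8 alone of the 8 (7.18% of all). The motif letters were settled after longer forms had been counted in these promoters. A motif match describes the letters in the window and is not a measured binding site. An absent match means only that these letters were not found, and other forms of an element are not marked.

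The normal library held 8130 cells and the fibrosis library 6437, with medians of 4144.5 and 5619 UMIs per cell, and 15 cell barcodes occurred in both. After the filter of the methods (mitochondrial share under 10%, over 200 genes) 7471 and 6132 cells remained. Clusters were named from marker genes, and a class is called "X-like" because it was rebuilt from the counts. Of these cells 27.1% of the normal and 26.8% of the fibrosis library took no class, being mixed, cycling or unnamed. Hepatocyte markers, which free RNA can carry into any droplet, made up 103 to 432 UMIs per 10000 in the normal classes other than Hepatocyte-like, and 10.6 to 107 in the fibrosis ones. Levels are given as UMIs of a gene per 10000 UMIs of all cells in a class, with exact 95% Poisson intervals, and ratios are fibrosis over normal with exact conditional intervals. Each condition is 1 mouse and 1 library, so no difference between conditions has a replicate check and none was tested. The intervals cover counting error and not differences between animals. Since 3′ tags are counted, levels of different genes are molecules captured and carry no length bias, although capture differs between genes. A level in a sum of cells cannot tell fewer expressing cells from less RNA per cell.

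**Figure D1:**
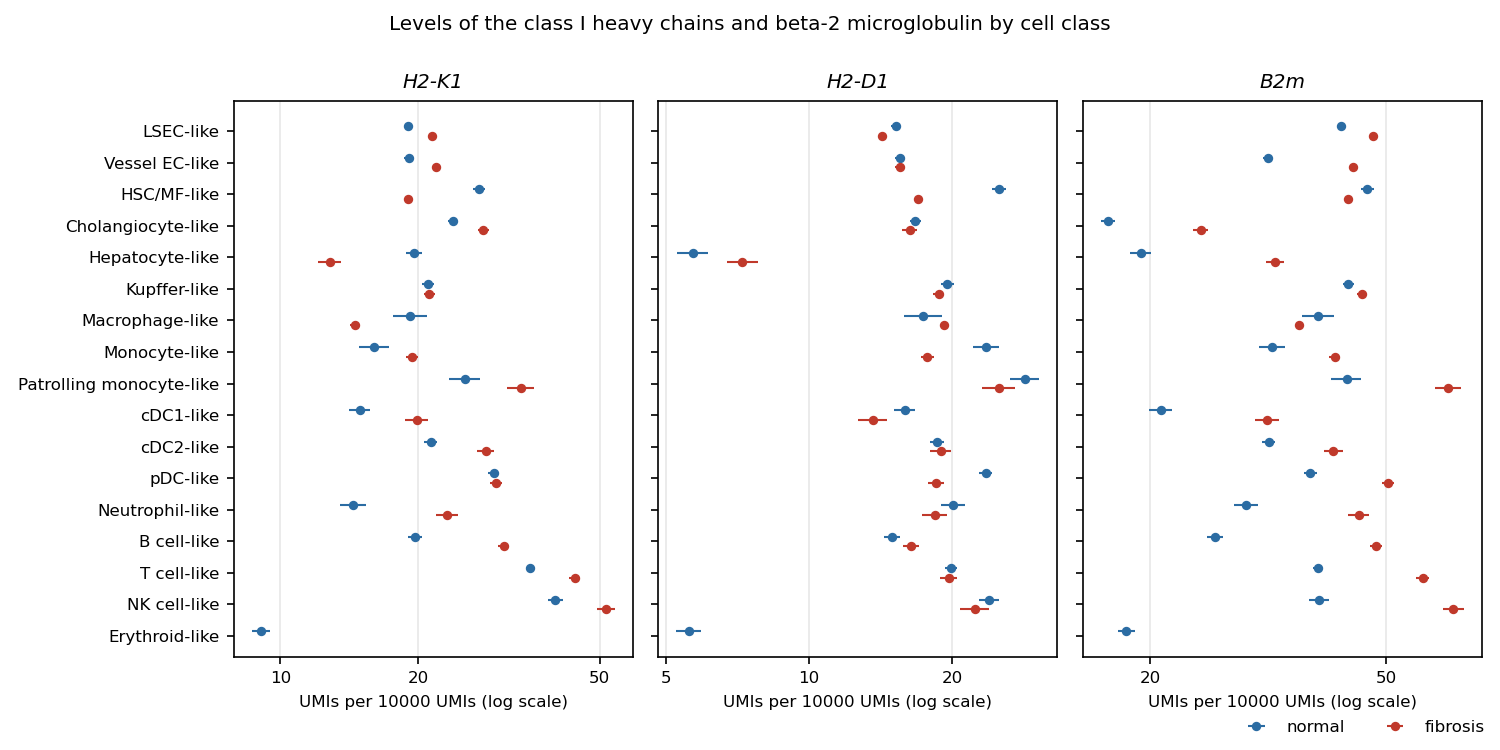
Levels of H2-K1, H2-D1 and B2m (UMIs per 10000 UMIs, log scale) in 17 cell classes of the normal (blue) and fibrosis (red) library; points are the level of 1 library and bars its 95% Poisson interval. H2-K1 was highest in NK cell-like cells of both libraries (40.0 and 51.6), and the normal-only Erythroid-like cells were lowest for H2-K1 and H2-D1.

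The heavy chains and β2-microglobulin were captured in every class, and the class at the top differed by gene. Classes are ranked among the 18 of each library with at least 50 cells, which leaves out the normal PF-like (portal fibroblasts, 44 cells) and Mesothelial-like (45 cells) and the fibrosis Plasma cell-like cells (11 cells). H2-K1, which encodes the heavy chain of the K molecule, was highest in NK cell-like cells, with a normal level of 40.0 (95% interval 38.6–41.5) and a fibrosis level of 51.6 (49.2–54.0). T cell-like cells came next at 35.3 and 44.1, and their intervals were apart from those of NK cell-like cells in both libraries. At the low end of the normal library stood Erythroid-like cells with 9.07 and Plasma cell-like cells with 12.8, and in fibrosis PF-like cells (81 cells) with 11.8 and Hepatocyte-like cells with 12.8, whose intervals overlapped. The unranked normal PF-like cells held 11.2.

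H2-D1, the second classical heavy chain of this strain, was highest in Patrolling monocyte-like cells, 28.4 (26.5–30.5) in normal and 25.1 (23.1–27.1) in fibrosis. HSC/MF-like cells (hepatic stellate cells and myofibroblasts) ranked second in the normal library with 25.1, not apart from NK cell-like cells with 23.9. Of the 17 pairs of neighbours in the order of 18 classes, 13 overlapped in each library, so most neighbours in the order of H2-D1 were not apart. H2-K1 and H2-D1 share 6.94% of the 50-base windows of the H2-K1 transcript, but 0.443% of the windows in the last 500 bases, where 3′ reads mostly fall.

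B2m, the invariant light chain, was highest in HSC/MF-like cells of the normal library at 46.4 (45.3–47.6), followed by Kupffer-like cells at 43.1, whose interval was apart. In fibrosis the top was NK cell-like cells at 64.8 (62.2–67.5), not apart from Patrolling monocyte-like cells at 63.5. Cholangiocyte-like cells were lowest in both, with 17.0 (16.5–17.4) and 24.3 (23.6–25.0), although their H2-K1 was 23.8 and 27.8. The unranked normal PF-like cells were lower still at 14.8. The spread of B2m over the ranked classes was 2.74-fold in normal and 2.67-fold in fibrosis.

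With each cell thinned to 1000 UMIs, taken as the share expected over all ways to draw them, B2m was seen in 97.5% of LSEC-like cells of the normal library (95% Clopper-Pearson interval 96.3–98.4) and in 98.9% of those in fibrosis (98.0–99.5). Without thinning the share was 100% in both. In Erythroid-like cells, the class with the lowest summed level of these genes (median 2325 UMIs against 5397 in normal LSEC-like cells), 77.2% held a B2m UMI after thinning. For H2-K1 the shares were 82.8% (80.2–85.2) and 88.1% (85.9–90.2) in LSEC-like cells, with intervals apart, and 57.8% in Erythroid-like cells. Both genes were thus seen in more LSEC-like than Erythroid-like cells at a matched depth.

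**Figure D2:**
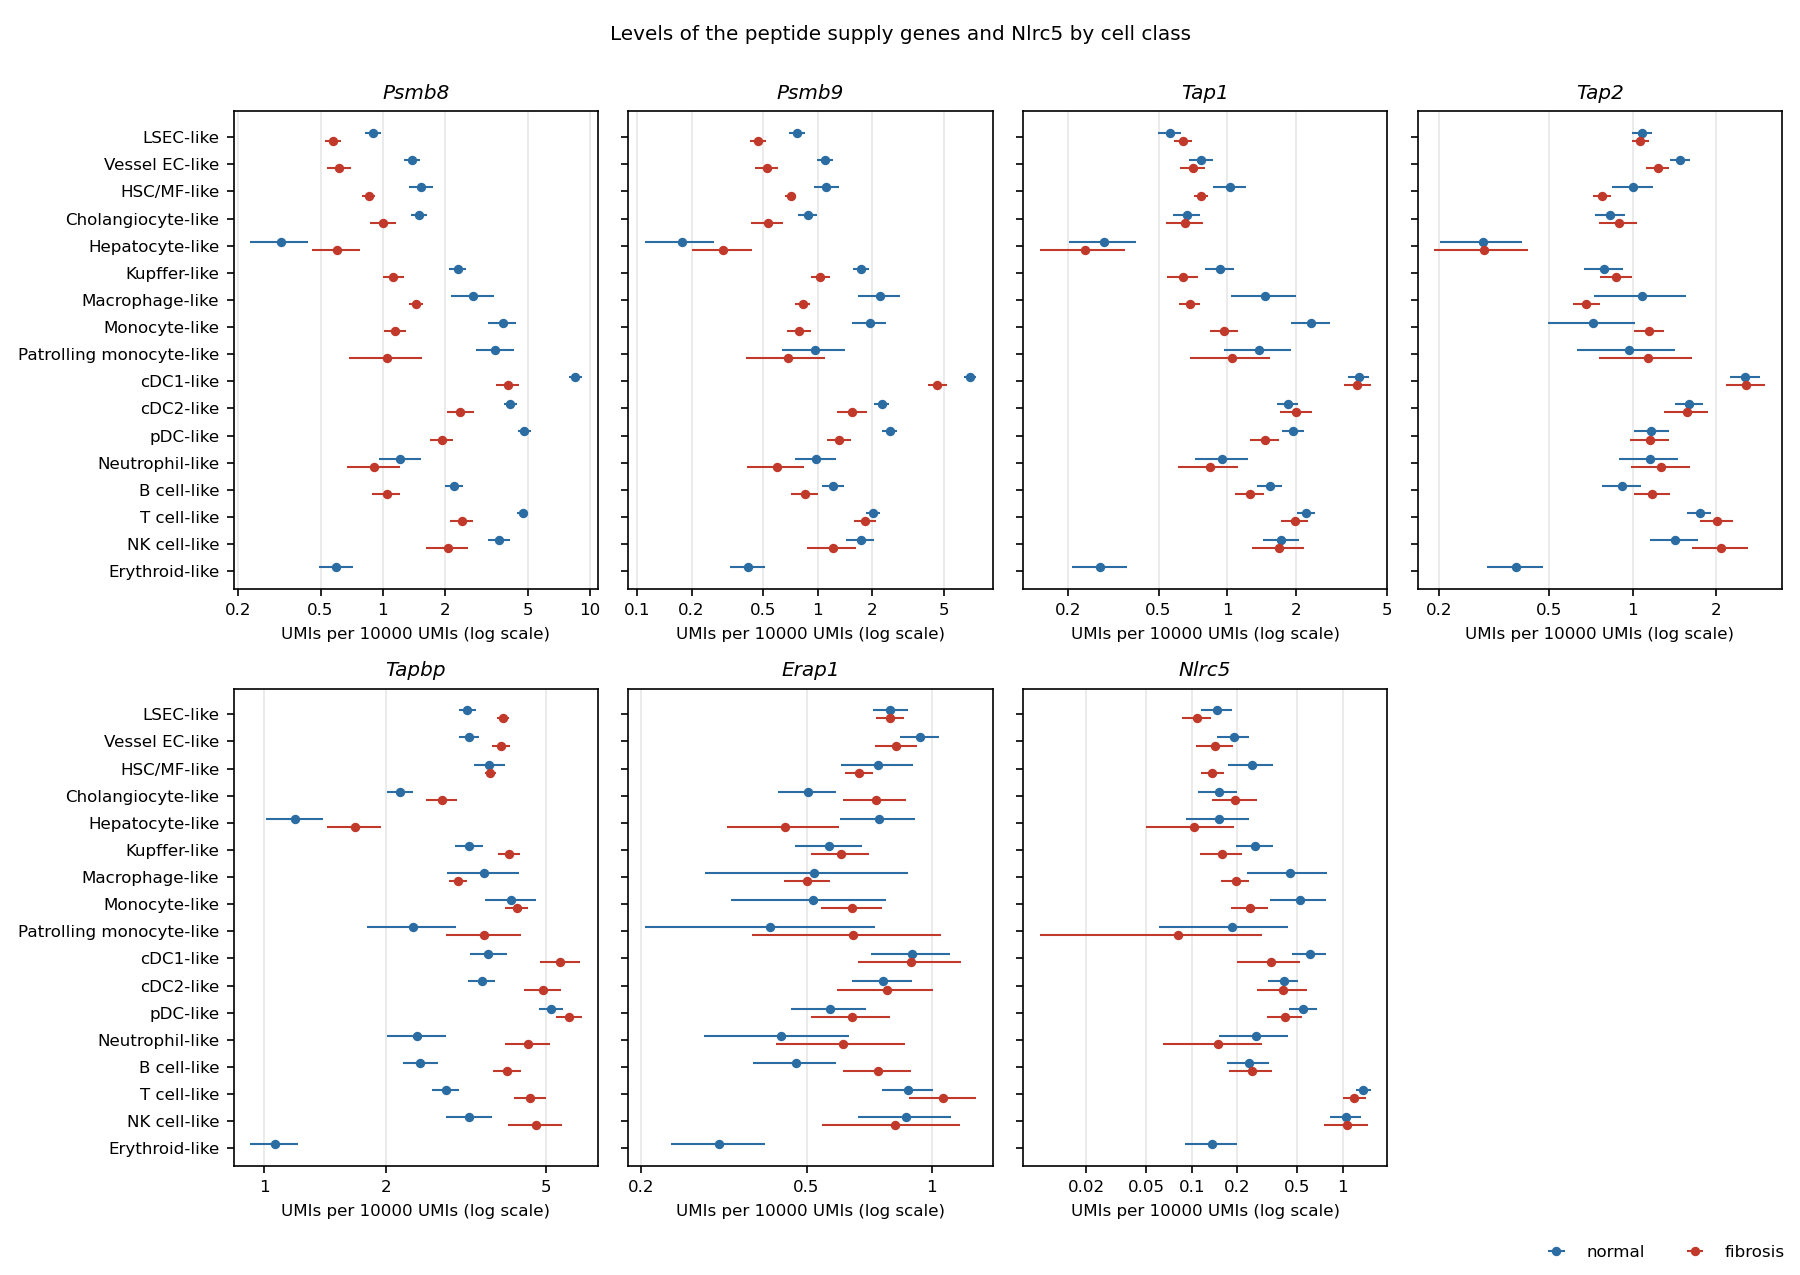
Levels of Psmb8, Psmb9, Tap1, Tap2, Tapbp, Erap1 and Nlrc5 (UMIs per 10000 UMIs, log scale) in 17 cell classes of the normal (blue) and fibrosis (red) library, with 95% Poisson intervals. The cDC1-like cells stood highest for Psmb8, Psmb9, Tap1 and Tap2 in both libraries, and the red points of Psmb8 lay left of the blue ones in every class drawn in both libraries except Hepatocyte-like.

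The peptide transporter and the immunoproteasome were highest in cDC1-like cells, the dendritic cells known for presenting taken-up antigen on class I. Tap1, a subunit of the transporter, stood at 3.76 (3.38–4.17) in normal and 3.71 (3.23–4.25) in fibrosis there, apart from every other class. The next classes were Monocyte-like and T cell-like in normal (2.32 and 2.21) and cDC2-like and T cell-like in fibrosis (2.01 and 1.98), and within each library these did not separate. Hepatocyte-like cells held 0.288 and 0.238, and normal LSEC-like cells 0.560.

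Tap2, the other transporter subunit, was also highest in cDC1-like cells, with 2.54 (2.23–2.88) and 2.56 (2.16–3.01), although in fibrosis its interval overlapped that of NK cell-like cells at 2.08. LSEC-like cells held more Tap2 than Tap1, with a quotient of Tap1 over Tap2 of 0.519 (0.449–0.599) in normal and 0.601 (0.537–0.672) in fibrosis. In cDC1-like cells this quotient was 1.48 and 1.45, and in HSC/MF-like cells 1.03 and 0.991.

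Tapbp encodes tapasin, which bridges the transporter and the heavy chain. It was highest in pDC-like cells (plasmacytoid dendritic cells), with 5.16 in normal and 5.71 in fibrosis, and in fibrosis it was not apart from cDC1-like cells at 5.43. The unranked normal Mesothelial-like cells held 5.18. Erap1, the aminopeptidase that trims peptides, ranged from 0.308 to 0.938 in normal and from 0.445 to 1.07 in fibrosis. All 17 pairs of neighbours overlapped in both libraries, while classes farther apart separated, as Vessel EC-like (0.842–1.04) and B cell-like cells (0.372–0.590) did in normal.

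Psmb8, a catalytic immunoproteasome subunit that takes the place of Psmb5, reached 8.49 (7.92–9.10) in cDC1-like cells of the normal and 4.01 (3.51–4.56) of the fibrosis library, apart from every other class in both. The next classes were pDC-like (4.82) and T cell-like (4.72) cells in normal and T cell-like (2.40) and cDC2-like (2.37) cells in fibrosis. LSEC-like cells were near the bottom with 0.899 and 0.575. Thinned to 1000 UMIs, Psmb8 was seen in 8.43% (6.68–10.4) of normal LSEC-like cells and 5.62% (4.20–7.30) of those in fibrosis, with intervals that overlapped. The share in Erythroid-like cells was 7.0% (5.25–9.10), so at this depth neither share in LSEC-like cells was apart from that level, although 38.2% and 37.1% of LSEC-like cells held a UMI without thinning. In T cell-like cells the thinned share was 35.0% (31.0–39.0) in normal and 18.6% (14.3–23.4) in fibrosis, with intervals apart. These cells come from 1 mouse per condition, so the gap is no test between conditions.

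Psmb9, the subunit that takes the place of Psmb6, ran from 6.96 and 4.59 in cDC1-like cells to 0.176 and 0.300 in Hepatocyte-like cells. Its range over the ranked classes, 39.5-fold, was the widest of the 10 genes in normal. In fibrosis it was 15.3-fold, under Nlrc5 (15.8) and Tap1 (15.6). Nlrc5 was highest in T cell-like cells, with 1.37 (1.23–1.54) in normal and 1.20 (0.999–1.42) in fibrosis, not apart from NK cell-like cells with 1.05 and 1.07. Outside lymphocytes it stood at or under 0.604, and in LSEC-like cells at 0.147 and 0.108. For Nlrc5 counts were as low as 2 UMIs in a class, and 3 cells then held up to 100% of them.

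The comparison of fibrosis with normal asks how the pathway differed in each kind of cell after CCl4. Per 10000 UMIs, in the 4 compartments, the 2 immunoproteasome genes stood lower in fibrosis, B2m stood higher, and the heavy chains were lower in the mesenchymal compartment. Ratios are on this scale unless they are called per cell. UMIs per cell also differed between the libraries, from 0.607 times as high in fibrosis in cDC2-like to 3.66 times in Macrophage-like cells, and a ratio per cell is the ratio per 10000 multiplied by that quotient. The endothelial, mesenchymal and immune sums follow the first clustering step, so they include cells that took no class in the second. The endothelial sum held 2233 normal cells, of which 891 were LSEC-like and 549 Vessel EC-like. In fibrosis it held 1667, of which 912 and 428 were. The part of the cells without a class was not tested. B2m was 38.6 in normal and 45.8 in fibrosis among endothelial cells, 35.3 and 39.8 among mesenchymal, 17.6 and 27.2 among parenchymal and 33.9 and 43.3 among immune cells. Its ratios were 1.19, 1.13, 1.54 and 1.28, and all 4 intervals lay above 1. Psmb8 ratios were 0.567 in endothelial, 0.665 in mesenchymal, 0.746 in parenchymal and 0.425 in immune cells, and all intervals lay under 1. H2-K1 was at 1.12, 0.779, 0.998 and 0.957 in the same order. Mesenchymal cells held 2.10 times as many UMIs per cell in fibrosis, and per cell the directions turned, with Psmb8 at 1.40, Psmb9 at 1.49, H2-K1 at 1.64 and H2-D1 at 1.62.

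A gene was counted as past the fold when its ratio was at least 1.5 or at most 1/1.5 with a mean of at least 0.2 UMIs per 10000. Among endothelial cells 2 of 9 genes of the pathway with that mean were lower (Psmb8 and Psmb9) and 0 higher, where 7.68% of all genes were lower and 9.15% higher. Mesenchymal cells had 1 of 9 lower (Psmb8; background 9.07%) and 0 higher (11.9%). Parenchymal cells had 1 of 9 higher (B2m; 15.1%) and 1 lower (Psmb9; 6.21%). Immune cells had 4 of 10 lower (Tap1, Psmb8, Psmb9 and Nlrc5; 11.3%) and 0 higher (14.7%). Per cell, Psmb8 of these 4 stayed past the fold (0.602), while Tap1 (0.931), Psmb9 (0.756) and Nlrc5 (0.749) did not, nor did the endothelial Psmb8 (0.805) and Psmb9 (0.757). Immune classes differed in size between the libraries, with 52 normal and 250 fibrosis Macrophage-like cells and 562 and 297 T cell-like cells, and this mix enters the immune sum. The parenchymal sum held 234 Cholangiocyte-like and 127 Hepatocyte-like cells in normal and 90 and 146 in fibrosis, and the 2 classes differed in direction for H2-K1 (1.17 and 0.653) and Psmb8 (0.673 and 1.87).

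**Figure D3:**
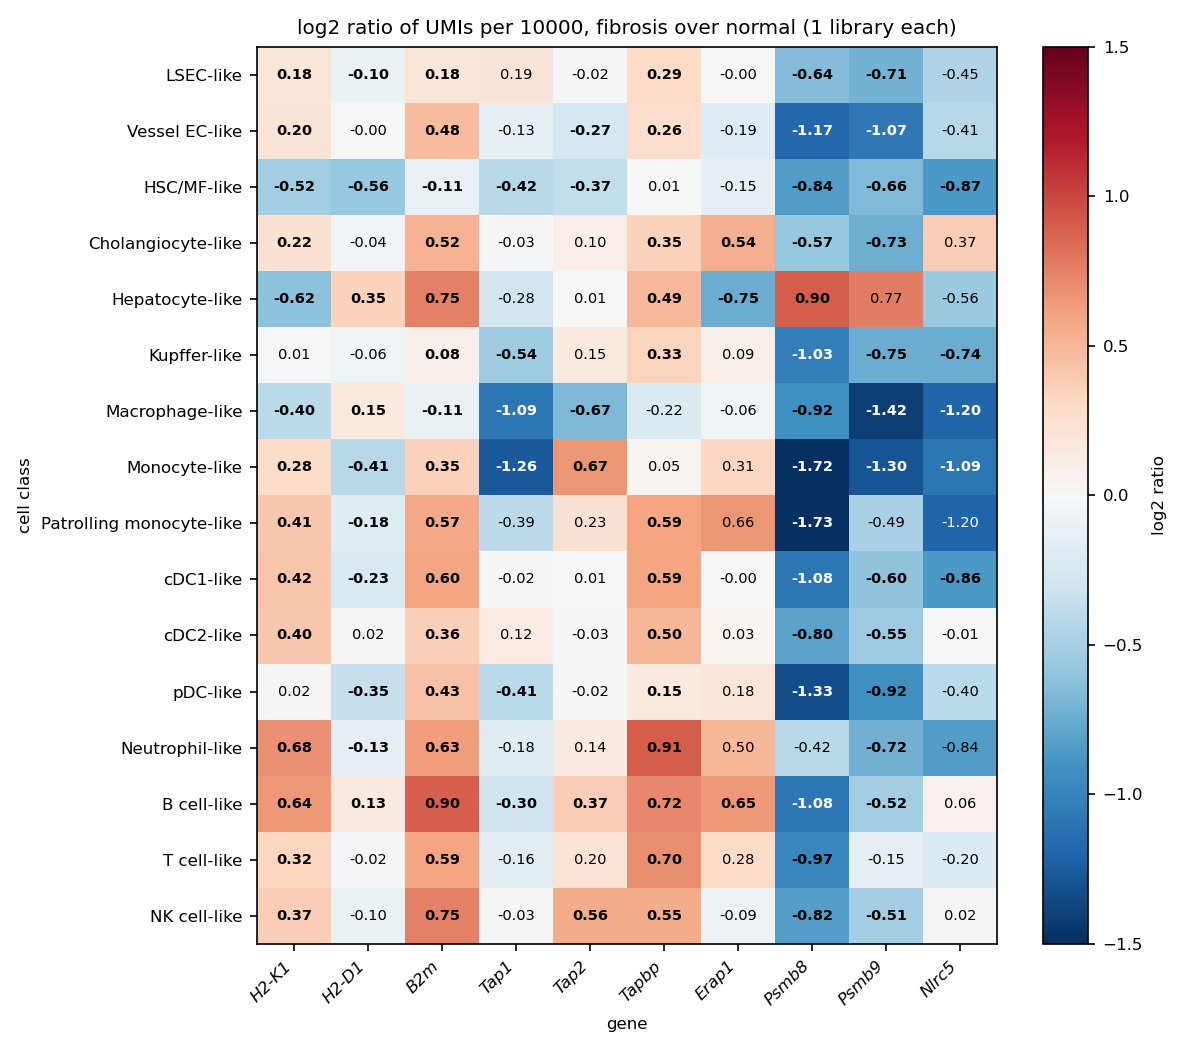
log2 ratio of UMIs per 10000, fibrosis over normal, for the 10 genes (columns) in the 16 cell classes with at least 50 cells in both libraries (rows); red is higher and blue lower in fibrosis, bold marks ratios whose 95% counting interval excludes 1, and colours stop at −1.5 and 1.5. The Psmb8 column is blue in 15 of the 16 classes, with Hepatocyte-like cells as the exception, and the B2m column is red in 14.

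Over the 16 classes with at least 50 cells in both libraries, the genes fell into those mostly lower, those mostly higher and those near 1. Psmb8 was lower past the fold in 13 of 16 classes and higher in 1 (87% of genes were higher in at least 1), with a median ratio of 0.519. Of the 3994 genes with the minimum mean in all 16 classes, 4.06% were lower past the fold in at least 13. Psmb9 was lower in 10 of 16 (6.28% of genes reach that) with a median of 0.622. Nlrc5 had the minimum mean in 10 classes and was lower in 5 of them (8.34% of 4918 genes). Per cell, 3 of those 5 were above 1, Kupffer-like (1.32), Macrophage-like (1.59) and Monocyte-like (1.06), and of the others the Neutrophil-like value rests on 16 and 8 UMIs with an interval that includes 1 (0.207–1.38). As UMIs per cell rather than per 10000 UMIs, Psmb8 was lower past the fold in 9 of the 16 classes (4.73% of genes were lower in at least 9) and Psmb9 in 8 (6.53%). The classes come from the same 2 libraries and are not independent repeats of the comparison.

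B2m was higher past the fold in 6 of 16 classes, as were 23.6% of genes, with a median ratio of 1.41 and a range of 0.927 to 1.87. Tapbp was higher in 5 (29.5% of genes), with a median of 1.34. H2-K1 was higher in 2 (64.7%), B cell-like and Neutrophil-like, and lower in 1 (47.8%), Hepatocyte-like. Counts of this size for B2m, Tapbp and H2-K1 are common among all genes. H2-D1 was past the fold in 0 of 16 classes, and its ratios ran from 0.677 to 1.27. Per cell the ratios ran wider, from 0.780 to 3.41 for B2m, 0.860 to 3.16 for Tapbp and 0.60 to 4.06 for H2-D1. Tap1 was lower in 2 classes, Macrophage-like (0.470) and Monocyte-like (0.418), as were 24.9% of genes in at least 2, and per cell it was at 1.72 and 0.947 there. Tap2 was lower in Macrophage-like (0.629; 47.8% of genes were lower in at least 1 class) and higher in Monocyte-like cells (1.59; 87%). Erap1 was higher in 2 classes (64.7%) and lower in 1 (47.8%), so its counts and those of Tap2 are common among all genes. Per cell Tap2 was higher in both Macrophage-like (2.30) and Monocyte-like cells (3.60).

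Class by class, the genes past the fold were mostly those 2 immunoproteasome genes on the lower side and B2m and Tapbp on the higher. Vessel EC-like cells, which line larger vessels, had 2 of 9 lower, Psmb8 (1.39 and 0.615, ratio 0.443, 0.377–0.520) and Psmb9 (1.10 and 0.523, ratio 0.476), against 10.3% of all genes, and 0 higher against 12.3%. Kupffer-like cells had 3 of 10 lower, Nlrc5 among them, against 8.26%, and 0 higher against 15.6%. pDC-like cells had 2 of 10 lower against 10.9% and 0 higher against 21.7%, and cDC2-like cells 1 of 10 lower (Psmb8) against 16.3% and 0 higher against 16.4%. LSEC markers went from 51.4 to 104 UMIs per 10000 in pDC-like cells, whose own markers went from 141 to 103, and from 13.5 to 35.9 in Kupffer-like cells. In Vessel EC-like cells LSEC markers went from 136 in normal to 178 in fibrosis, and own markers from 76.0 to 50.3. In cDC2-like cells LSEC markers went from 57.3 to 23.5, own markers from 17.8 to 32.2 and the median doublet score from 0.0914 to 0.0535. The part of these values in the ratios was not tested.

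The cDC1-like cells had 2 of 10 higher (B2m and Tapbp) against 25.3% and 3 lower against 10.9%. T cell-like cells had the same 2 genes higher against 23.3% and Psmb8 lower against 10.8%, and NK cell-like cells had B2m higher against 29% and Psmb8 lower against 13.7%. Neutrophil-like cells had 3 of 10 higher, H2-K1, B2m and Tapbp, against 32.8% and 2 lower, Psmb9 and Nlrc5, against 13%. The markers of these cells made up 567 UMIs per 10000 in normal and 295 in fibrosis, those of cDC1-like cells 325 and 202 and those of NK cell-like cells 216 and 122, whose part was not tested. Patrolling monocyte-like cells had 2 of 9 higher, Tapbp and Erap1, against 32.5% and Psmb8 lower against 17.7%. Erap1 there rests on 11 and 16 UMIs, with an interval that includes 1 (0.690–3.77). Most of these higher counts lie at or under the share of all genes. Per cell, none of the higher genes of cDC1-like, T cell-like, Neutrophil-like and Patrolling monocyte-like cells was past the fold, with B2m at 1.44 in cDC1-like and 1.36 in T cell-like cells.

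In LSEC-like cells (891 normal, 912 fibrosis) the genes of the presenting molecule were nearly level between the libraries per 10000 UMIs, and the immunoproteasome genes were lower in fibrosis on that scale. H2-K1 was 19.0 (18.6–19.4) in normal and 21.5 (21.2–21.8) in fibrosis, a ratio of 1.13 (1.10–1.16). H2-D1 was 15.2 and 14.2, a ratio of 0.934 (0.907–0.961), and B2m was 41.9 and 47.4, a ratio of 1.13 (1.11–1.15). The intervals exclude 1 in each case, while the sizes are well within the fold that 1.5 sets. For transport and loading, Tap1 had a ratio of 1.14 (0.987–1.33), Tap2 of 0.986 (0.885–1.10), Tapbp of 1.23 (1.15–1.30) and Erap1 of 0.999 (0.881–1.13).

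Psmb8 fell outside that band, at 0.899 (0.819–0.984) in normal and 0.575 (0.523–0.630) in fibrosis, a ratio of 0.639 (0.561–0.729). Psmb9 was 0.765 and 0.467, a ratio of 0.610 (0.528–0.705). These 2 genes were at percentiles 6.5 and 5.62 among the 7135 genes tested in the class, of which 7.48% were lower and 9.84% higher past the fold. The 3 LSEC-like clusters of the normal library held 0.756 to 0.954 of Psmb8, and the 4 of the fibrosis library 0.541 to 0.618. These ranges do not overlap, but clusters within 1 library are no replicates of a condition. Nlrc5 was 0.147 and 0.108 (ratio 0.734, 0.532–1.01). The median LSEC-like cell held 5397 UMIs in normal and 7814.5 in fibrosis, and as UMIs per cell Psmb8 and Psmb9 had ratios of 0.952 and 0.908, which are inside the fold, while H2-K1 and B2m were both at 1.68.

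Other genes of the pathway in LSEC-like cells differed by group. Of 11 other peptide supply and loading genes tested, 4 were higher past the fold and 0 lower, with a median log2 ratio of 0.22 against 0.08 over all genes, of which 9.84% were higher and 7.48% lower. The largest were Pdia6, a disulfide isomerase, from 1.96 to 7.38 (ratio 3.76), and Calr, a chaperone of the loading complex, from 3.90 to 10.5 (2.69), while the third immunoproteasome subunit Psmb10 had a ratio of 0.791. Of 14 constitutive proteasome genes 0 were past the fold in either direction, with a median of −0.21. Among 13 regulators Irf1, an interferon-induced factor, was 1.88 and 3.62 (ratio 1.93, 1.79–2.08), and Irf2 was 1.79 and 1.17 (0.653). Among 12 interferon-gamma response genes 2 were higher and 2 lower (median −0.01), Cxcl10 at 2.16 and Igtp at 0.588 marking the ends.

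In HSC/MF-like cells (124 normal, 410 fibrosis) both heavy chains stood lower in fibrosis per 10000 UMIs, along with the immunoproteasome genes. H2-K1 was 27.2 (26.4–28.1) in normal and 19.0 (18.8–19.3) in fibrosis, a ratio of 0.699 (0.675–0.724). H2-D1 was 25.1 and 17.0, a ratio of 0.677 (0.653–0.702), and B2m was 46.4 and 43.0, a ratio of 0.927 (0.903–0.951). The heavy chains thus differed more than their light chain, and B2m per H2-K1 molecule was 1.70 (1.64–1.77) in normal and 2.26 (2.22–2.30) in fibrosis.

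Tap1 had a ratio of 0.747 (0.624–0.900), Tap2 of 0.776 (0.647–0.936), Tapbp of 1.01 (0.916–1.11) and Erap1 of 0.902 (0.732–1.12). Psmb8 was 1.53 (1.33–1.75) and 0.853 (0.796–0.914), a ratio of 0.559 (0.480–0.652). Psmb9 was 1.11 and 0.706 (0.634, 0.532–0.759), and Nlrc5 was 0.250 and 0.137 (0.548, 0.375–0.821). Psmb8 and Psmb9 were past the fold, 2 of 9 genes, where 7.90% of 7636 genes were lower and 11.6% higher. The heavy chains stayed inside the fold but lay at percentiles 9.39 and 8.37 of all genes tested.

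The direction in HSC/MF-like cells depends on the scale. More UMIs were captured per cell in fibrosis, with a median of 20219.5 UMIs against 10405.5, and a mean 2.08 times as high, where the mean over all cells kept was 1.51 times as high. RNA content and capture cannot be told apart here. As UMIs per cell, all 10 genes were higher in fibrosis, H2-K1 by 1.45 times and Psmb8 by 1.16 times, and the median log2 ratio of the 10 genes turned from −0.47 to 0.59. LSEC markers made up 111 UMIs per 10000 in normal and 91.0 in fibrosis HSC/MF-like cells. In the cells of each library under its median LSEC-marker share (62 and 205 cells) the median was −0.67.

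The 6 HSC/MF-like clusters of the fibrosis library spread from 17.4 to 26.4 for H2-K1, from 14.9 to 19.8 for H2-D1 and from 0.406 to 1.33 for Psmb8. The 2 of the normal library held 25.1 and 31.2 of H2-K1, 22.6 and 29.8 of H2-D1 and 1.34 and 1.88 of Psmb8. Clusters overlapped for H2-K1 and were apart for H2-D1 and, narrowly, for Psmb8. Clusters of 1 library are no replicates.

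Some interferon-response genes in HSC/MF-like cells were lower past the fold. Of 13 interferon-gamma response genes tested, 8 were lower and 0 higher, with a median log2 ratio of −0.65 against 0.04 over all genes, of which 7.90% were lower and 11.6% higher. Iigp1, an interferon-inducible GTPase, was 4.13 in normal and 1.89 in fibrosis (0.459, 0.418–0.505), and Igtp 0.657 and 0.277 (0.422). Per cell these 2 were at 0.954 and 0.878, inside the fold. Of 12 type I interferon response genes 4 were lower and 0 higher (median −0.39), among them Ifit3 (1.19 and 0.433, ratio 0.363) and Isg15 (1.01 and 0.467, ratio 0.461), which per cell were at 0.755 and 0.958. Of 9 interferon and receptor genes 3 were higher and 0 lower, including Ifnar1 (1.60) and Ifngr2 (1.57), which encode receptor chains. Of 8 other heavy-chain genes 3 were lower, H2-Q6 at 0.531 and H2-Q10 at 0.131 being the lowest. H2-Q10 encodes a secreted heavy chain made by hepatocytes, and it was lower in all 16 classes, as were hepatocyte markers in each class, whose part in its ratio was not tested.

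**Figure D4:**
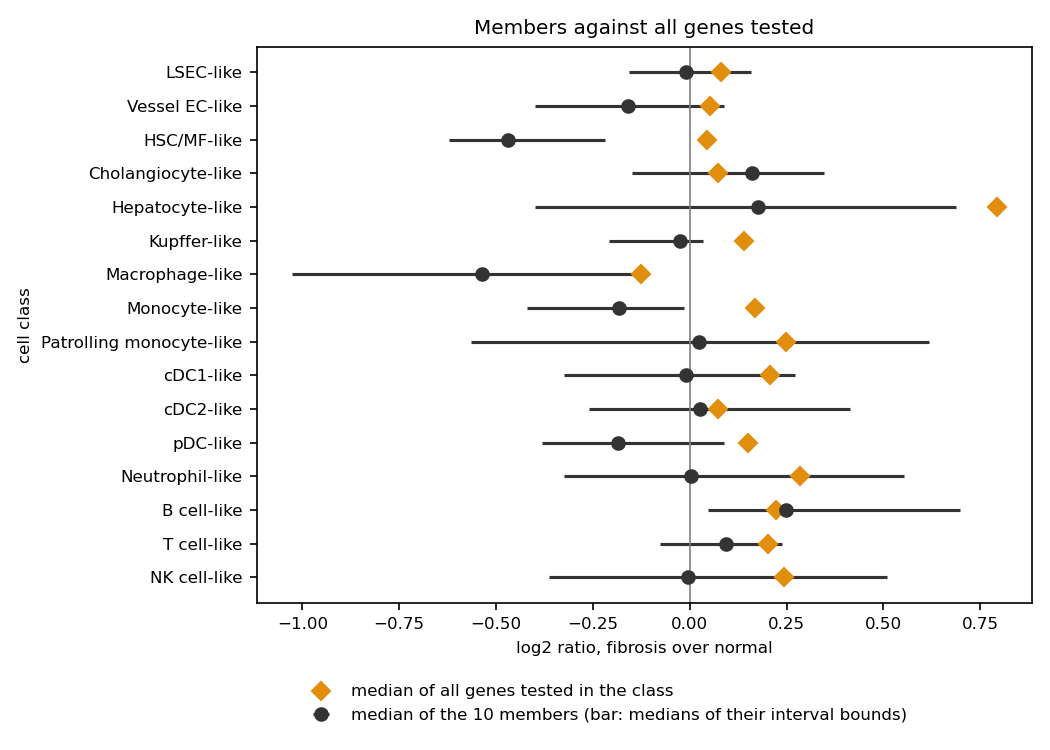
Median log2 ratio (fibrosis over normal) of the genes of the pathway in each of 16 cell classes (black points; bars run from the median of the lower to the median of the upper 95% counting bounds) beside the median of all genes tested in the class (orange diamonds). HSC/MF-like cells stood at −0.47 against 0.04, and Hepatocyte-like cells at 0.18 against 0.79.

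Over all 10 genes the median log2 ratio was −0.01 in LSEC-like cells, where the medians of the lower and upper bounds were −0.16 and 0.16. It was −0.47 (−0.62 and −0.22) in HSC/MF-like, 0.18 (−0.40 and 0.69) in Hepatocyte-like and 0.25 (0.05 and 0.70) in B cell-like cells. The medians over all genes tested were 0.08, 0.04, 0.79 and 0.22 in the same order. Relative to these the 10 genes stood at −0.51 in HSC/MF-like and −0.62 in Hepatocyte-like cells, and at −0.09 and 0.02 in LSEC-like and B cell-like cells. The plot of medians shows the 10 genes left of all genes in 14 of the 16 classes, the exceptions being Cholangiocyte-like and B cell-like cells.

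Among parenchymal cells, Cholangiocyte-like cells (234 normal, 90 fibrosis) line bile ducts. H2-K1 was 23.8 and 27.8 there, a ratio of 1.17 (1.13–1.21), H2-D1 was 16.7 and 16.3 (0.973, 0.93–1.02) and B2m was 17.0 and 24.3 (1.43, 1.38–1.49). Psmb8 was 1.49 and 1.01 (0.673, 0.564–0.801), just inside the fold, and Psmb9 0.878 and 0.528 (0.601, 0.471–0.762), past it, so 1 of 9 genes was lower where 7.04% of all genes were, and 0 higher (9.56%). Per cell Psmb8 was at 1.01 and Psmb9 at 0.901. B2m lay at percentile 87.5 and Psmb9 at 4.54 of the genes tested.

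Hepatocyte-like cells (127 normal, 146 fibrosis) differed in depth as well as in condition. Their median was 7767 UMIs in normal and 2036 in fibrosis, and hepatocyte markers made up 2178 and 768 UMIs per 10000. H2-K1 was 19.6 and 12.8 (0.653, 0.609–0.699), H2-D1 5.68 and 7.24 (1.27, 1.15–1.42) and B2m 19.3 and 32.5 (1.69, 1.60–1.78). B2m per H2-K1 molecule was 0.981 in normal and 2.53 in fibrosis, the highest of the 16 classes in the latter.

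In the same cells Psmb8 was 0.320 and 0.60 (1.87, 1.23–2.87), Psmb9 0.176 and 0.300 (1.70, 0.944–3.11) and Erap1 0.745 and 0.445 (0.597, 0.406–0.865). Of 9 genes 3 were higher and 2 lower past the fold, where 58.3% of all 5884 genes were higher and 11.5% lower. Per cell the 3 higher genes, B2m (1.14), Psmb8 (1.26) and Psmb9 (1.15), were inside the fold. All 14 constitutive proteasome genes were higher past the fold, with a median log2 ratio of 1.40. The higher Psmb8 and Psmb9 rest on which cells are taken as Hepatocyte-like. With no mitochondrial limit (723 and 156 cells) their log2 ratios were −0.19 and −0.77, and with both libraries clustered together (1174 and 57 cells) −0.38 and −1.15.

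In B cell-like cells (575 normal, 650 fibrosis) the molecule's genes were higher in fibrosis and Psmb8 lower per 10000 UMIs. H2-K1 was 19.7 (19.0–20.4) and 30.8 (29.9–31.7), a ratio of 1.56 (1.49–1.64), B2m was 25.7 and 48 (1.87, 1.80–1.94), and H2-D1 was 15 and 16.4 (1.09, 1.03–1.16). Thinned to 1000 UMIs, the share of cells with an H2-K1 UMI was 85.0% (81.8–87.8) in normal and 96.0% (94.2–97.4) in fibrosis. Tapbp was 2.44 and 4.01 (1.64, 1.45–1.87), Erap1 0.472 and 0.742 (1.57, 1.17–2.12), Tap2 0.913 and 1.18 (1.29) and Tap1 1.54 and 1.25 (0.815, 0.672–0.986). Psmb8 was 2.21 and 1.04 (0.472, 0.390–0.570) and Psmb9 1.21 and 0.844 (0.696, 0.554–0.871).

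These are 4 of 10 genes higher and 1 lower, where 28.7% of 7566 genes were higher and 13.1% lower. Per cell, B2m (1.58) of the 4 higher genes stayed past the fold, while H2-K1 (1.33), Tapbp (1.39) and Erap1 (1.33) did not, and H2-D1 turned to 0.927. LSEC markers in these cells made up 17.9 UMIs per 10000 in normal and 73.0 in fibrosis, and B cell markers 119 and 72.0. The part of these markers in the B cell-like ratios was not tested. Of 8 type I interferon response genes 7 were higher and 0 lower (median log2 ratio 1.30), Ifi44 from 0.0674 to 0.377 and Ifit2 from 0.110 to 0.409. Of 14 interferon-gamma response genes 7 were higher and 2 lower, Cxcl10 (6.66) and Cxcl9 (4.80), chemokines that draw T cells, against Igtp (0.493) and Iigp1 (0.416).

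Other immune classes shared the lower Psmb8. Kupffer-like cells, the resident macrophages, held 2.30 and 1.12 (0.488, 0.420–0.567) beside level H2-K1 (21.0 and 21.2) and B2m (43.1 and 45.4). Their median was 4210.5 UMIs in normal and 10236 in fibrosis, and as UMIs per cell Psmb8 had a ratio of 1.08 and H2-K1 of 2.22. T cell-like cells held 4.72 and 2.40 (0.509, 0.443–0.584), with H2-K1 at 35.3 and 44.1 and B2m at 38.3 and 57.6 (1.5, 1.45–1.55). In cDC1-like cells Psmb8 was 0.472 (0.406–0.547), Psmb9 0.659 (0.569–0.761) and Tapbp 1.51 (1.29–1.76), while Tap1 was level (0.988, 0.830–1.17).

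Monocyte-like cells (67 normal, 145 fibrosis) showed Psmb8 at 3.78 and 1.14 (0.303, 0.248–0.370), Psmb9 at 1.94 and 0.786 (0.406) and Tap1 at 2.32 and 0.970 (0.418). With Nlrc5, 4 of 10 genes were lower there against 20.7% of all genes, and Tap2 was higher against 32.5%. The 2 groups held unlike cells, as the markers of the class itself made up 326 UMIs per 10000 in normal and 78.6 in fibrosis, LSEC markers 10.8 and 136, and the median doublet score was 0.0496 and 0.133. The part of these in the ratios was not tested. As UMIs per cell Psmb8 had a ratio of 0.685, inside the fold. Macrophage-like cells had 5 of 10 genes lower past the fold (Tap1, Tap2, Psmb8, Psmb9 and Nlrc5), where 28.9% of all genes were, and 0 higher (17.9%). Their median was 4742.5 UMIs in normal and 17658 in fibrosis, and the markers of the class made up 210 and 583 UMIs per 10000, whose part in the ratios was not tested. Per cell all 5 turned higher, from 1.37 for Psmb9 to 2.30 for Tap2. Cells of the shallow clusters that took no class (626 normal and 895 fibrosis, medians of 1311 and 1214 UMIs) went with the classes for Psmb8 (1.10 and 0.826, ratio 0.751) but had 8 of 10 genes higher past the fold, where 50.1% of all genes were (15.4% lower), H2-K1 at 16.2 and 33.2 and B2m at 28.0 and 51.3. Over all cells kept, H2-K1 and H2-D1 were level (1.03 and 1.02), B2m was 1.30 and Psmb8 0.465 per 10000 UMIs. This sum mixes unlike cells, as 729 Erythroid-like cells were in normal alone and HSC/MF-like cells went from 124 to 410. UMIs per cell were 1.51 times as high in fibrosis.

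**Figure D5:**
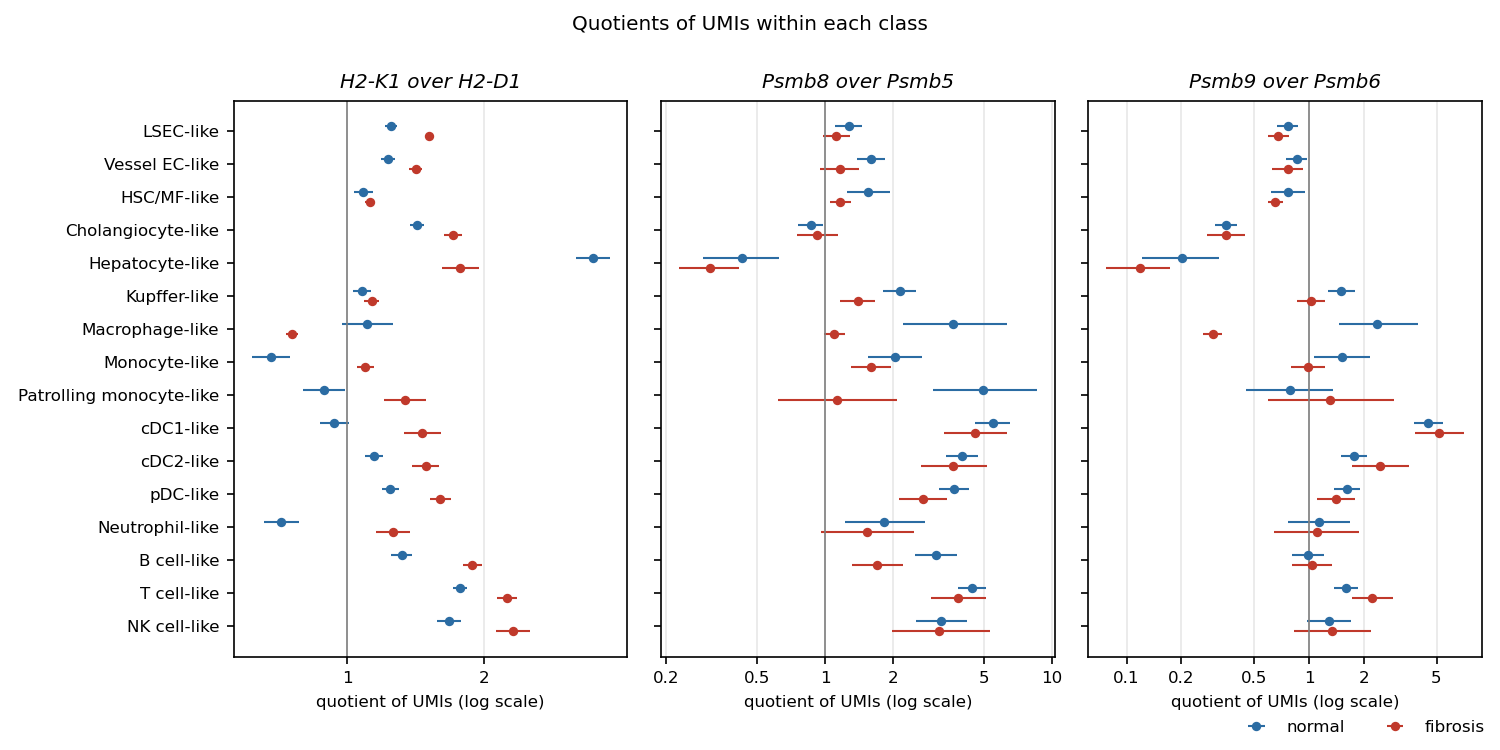
Quotients of UMIs of 2 genes within each of 16 cell classes of the normal (blue) and fibrosis (red) library, with 95% intervals on a log scale and a grey line at 1. For H2-K1 over H2-D1 the red points lay right of the blue in 14 of 16 classes, and for Psmb8 over Psmb5 the red points lay left of the blue in 15.

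Quotients of 2 genes in the same cells do not depend on the total. H2-K1 over H2-D1 was higher in fibrosis in 14 of 16 classes, with intervals apart in 12, and lower with intervals apart in 2. In LSEC-like cells it was 1.25 (1.21–1.29) in normal and 1.51 (1.48–1.55) in fibrosis, in cDC1-like cells 0.937 and 1.46, and in T cell-like cells 1.77 and 2.24. The exceptions were Hepatocyte-like cells, at 3.46 (3.18–3.76) and 1.77 (1.61–1.94), and Macrophage-like cells, at 1.11 and 0.756. In HSC/MF-like cells it was 1.09 (1.04–1.14) and 1.12 (1.10–1.14), which did not separate.

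Each immunoproteasome gene was also set against the constitutive subunit whose place it takes. Psmb8 over Psmb5 was higher in fibrosis in 1 of 16 classes and lower with intervals apart in 4. In LSEC-like cells it was 1.27 (1.11–1.46) and 1.12 (0.978–1.29) and in HSC/MF-like cells 1.55 (1.25–1.93) and 1.17 (1.06–1.29), with intervals that overlapped, while in B cell-like cells it was 3.08 (2.49–3.82) and 1.70 (1.31–2.21). Psmb9 over Psmb6 was higher in 6 and lower with intervals apart in 2, and in LSEC-like cells stood at 0.763 (0.668–0.871) and 0.680 (0.594–0.778). These 2 constitutive genes were themselves lower past the fold in many classes, Psmb5 in 8 and Psmb6 in 10 of 16 (6.28% of genes were lower in at least 10). Each was higher in 2 (64.7% of genes were in at least 2). Psmb7, the constitutive partner of Psmb10, was lower in 1 (47.8%) and higher in 2.

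Across the 32 points that the 16 classes make in 2 libraries, the 45 pairs among the 10 genes had Pearson r of −0.08 to 0.93 (median 0.46), and 21 pairs were above 0.5. The closest pairs were Psmb8 with Psmb9 (0.93) and Tap1 with Psmb9 (0.90), neighbours on chromosome 17, and the lowest was B2m with Psmb8 (−0.08). Among 7972 genes, those with the profile most like the mean of the 10 were Mbnl1 (0.91), Cyld (0.89), Sp110 (0.88), Nub1 (0.88) and Riok1 (0.87). For H2-K1 alone they were Bcl2 (0.82), Aqr (0.81), Mllt6 (0.80), H2-Q7 (0.80) and Med12 (0.79). For Psmb8 they were Psmb9, Rbm3 (0.91), Psme1 (0.91), Tap1 (0.89) and Abracl (0.88), of which Psme1 encodes a subunit of the proteasome activator PA28. The points share 2 libraries, their depth and their free RNA, so r is a description only.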

How the data were processed

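UMI counts per gene and cell were deposited without normalization. The authors made them with Cell Ranger 3.0.1 on the mm10 genome, and their methods state that doublets were excluded with Scrublet; run here, Scrublet marked 3 normal and 0 fibrosis cells. Cells needed a mitochondrial share under 10% and more than 200 genes. Each library was clustered on its own in 2 steps (2000 variable genes, 10 principal components, 20 neighbours, Leiden resolution 0.8), with the 10 genes and all listed genes left out. A cluster took the class with most markers among its leading genes, a rule settled after clusters had been seen. UMIs were summed per class. Shares of cells at a matched depth are expectations over all hypergeometric draws, used in place of 1 random draw once draws had been seen to differ. The 10 genes, the lists and the comparisons were chosen with earlier results of these data known. Named from each list are genes among its 2 largest and 2 smallest ratios in a class, and, in the closest profiles, the 5 with the highest Pearson r of log2(level + 0.1). The ratio script was checked on simulated counts. Clustering used scanpy 1.11.5 with leidenalg 0.10.2, and intervals came from scipy 1.17.1, under Python 3.11.15. With 1 library per condition no difference was tested.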

Additional observations from a re-analysis of the deposited data

Results flagged for a closer look

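Some genes lay past the fold in opposite directions in different cell classes. None of these differences between classes was tested, since each rests on 1 library per condition. H2-K1 had a ratio of fibrosis over normal of 1.61 in Neutrophil-like and 0.653 in Hepatocyte-like cells, and per cell 1.28 and 0.440. Tap2 had 1.59 in Monocyte-like and 0.629 in Macrophage-like cells, but as UMIs per cell it was higher in both (3.60 and 2.30). Erap1 had 1.57 in B cell-like and 0.597 in Hepatocyte-like cells, and per cell 1.33 and 0.402. Psmb8 had 1.87 in Hepatocyte-like and 0.301 in Patrolling monocyte-like cells, and per cell 1.26 and 0.205. The Hepatocyte-like ratio of Psmb8 turned with the choice of cells, as given with the other settings.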

How the results depend on the processing

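No paired analysis was possible because each condition has 1 library, and for the same reason no replicate could be left out. The median log2 ratio of the 10 genes moved by more than its counting bounds under these settings. As UMIs per cell it was 0.56 in LSEC-like, 0.59 in HSC/MF-like and 0.0094 in B cell-like cells, and in HSC/MF-like cells every gene that had been lower turned, those from a ratio of at most 1/1.5, whatever the mean, being Psmb8 (0.22), Psmb9 (0.40) and Nlrc5 (0.19). Relative to the class median of all genes it was −0.62 in Hepatocyte-like and 0.025 in B cell-like cells, and in Hepatocyte-like cells B2m and Psmb9 turned to −0.040 and −0.026. With a mitochondrial limit of 5% it was −0.81 in HSC/MF-like cells (19 and 125 cells). In the 62 and 205 HSC/MF-like cells with the lower LSEC-marker share, a setting chosen after seeing the data, it was −0.67.

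Hepatocyte-like cells changed most with how cells were chosen. Without a mitochondrial limit the median was −0.57, and Psmb8 and Psmb9 turned to −0.19 and −0.77. With the top 5% of Scrublet scores removed it was −0.45, with Psmb8 at −0.22 and Psmb9 at −0.83. With both libraries clustered together it was −0.64, with Psmb8 at −0.38 and Psmb9 at −1.15, and at resolution 1.5 Psmb9 was at −0.056. These settings took 222 to 1174 normal cells as Hepatocyte-like against 127, and 57 to 156 fibrosis cells against 146.

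Of 470 single-gene alternatives in the 4 classes, 12 changed sign from a ratio of at least 1.5 or at most 1/1.5, and of the others 366 stayed within the counting interval and 92 moved outside it. In all 65 changed sign, 18 of them as UMIs per cell. Raising the minimum mean to 1 UMI per 10000 was scored as moving 3 of 23 counts past the fold, those of higher genes, to 1 in Hepatocyte-like, 0 in Monocyte-like and 1 in Patrolling monocyte-like cells. That score does not show every gene lost. Psmb8 and Psmb9 fell under this minimum in LSEC-like (means of 0.737 and 0.616) and endothelial cells (0.824 and 0.692), so neither counts as lower there. Psmb9 did so in HSC/MF-like (0.910) and Cholangiocyte-like cells (0.703), and Erap1, a higher gene, in B cell-like cells. Shares of cells at 2000 instead of 1000 UMIs moved in 68 of 80 cases. Cells with at least 2000 UMIs, also chosen after seeing the data, left all 4 medians within their counting bounds. A mitochondrial limit of 5% gave no value for Hepatocyte-like and B cell-like cells, as the normal library then had none. Depth limits Nlrc5 and Erap1 most, and the number of mice limits every comparison.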
